A study of Mus musculus with 7 samples.

Results

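The regions described here are the stretches of the mouse genome at which peaks of C-MYC and of SOX2 were found in all 4 files of the 2 factors, and the question was how strongly, how broadly and how precisely at the same place each factor was bound there. All peaks of the 2 C-MYC files and the 2 SOX2 files were merged when they shared at least 1 bp, and a merged region was kept when each of the 4 files had a peak in it. This gave 14495 regions of 70193 merged regions, while merging the peaks of all 6 files of the series, POLII included, gave 115440 regions. The regions had a median width of 1302 bp, with quartiles at 966 and 1724 bp, and 14107 of them (97.3%) held exactly 1 peak of each file. Positions are given on mm9, the mouse build named in the submitters' processing notes. No gene names come with the peaks, and an annotation of mm9 was not used here, so regions are named by position alone.

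All libraries came from immortalized multipotent otic progenitor (iMOP) cells, mouse cells made by infecting SOX2-expressing cochlear progenitors with a c-Myc retrovirus. The paper derived several iMOP lines, and its main text does not say which was used for ChIP-seq. The cells grew as floating otospheres in DMEM/F12 with B27 and 20 ng/ml bFGF, a growth factor that keeps them dividing, and every group shared this condition. In ChIP-seq, DNA that an antibody pulls down with a protein is sequenced, and a peak is a stretch where the sequenced fragments, called tags, pile up over background. C-MYC was pulled down with the N-262 antibody, SOX2 with clone 6F1.2 and RNA polymerase II (POLII) with clone 4H8. There were 2 replicates for each of the C-MYC, SOX2 and POLII groups, and the labels do not say whether replicates came from separate cultures, so p-values measure only the spread between these samples, which may be technical.

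C-MYC is a basic helix-loop-helix leucine zipper protein that binds DNA together with its partner MAX, mostly at E-box sequences near the promoters of active genes, and it drives growth and proliferation. SOX2 belongs to the SOX family, whose HMG box binds the minor groove of DNA and bends it. SOX2 is a factor of embryonic and neural stem cells, and in the inner ear it marks the progenitors of hair cells, supporting cells and neurons. Both proteins therefore recognise DNA in different ways, and a shared peak does not by itself say that both sit on the same molecule.

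The C-MYC files held 2858772 and 3152430 tags in peaks, and the SOX2 files held 2758044 and 1784465. The signal of a region is its tags in a file divided by that file's tags in peaks, times 1000000, called normalised tags below. These sums are the only depth the files show, and the counting error given is that of the tags alone. The shared regions took 55.9% and 55.7% of the C-MYC tags, 59.7% of the tags of SOX2 replicate 1 and 67.9% of those of SOX2 replicate 2. A shared region held a median of 82 and 91 C-MYC tags and of 85 and 65 SOX2 tags, against 25, 26, 23 and 34 in the merged regions that the same files had elsewhere. They were the tag-rich end of all 4 files.

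The replicates of the 2 factors differed in how alike they were, which bears on every comparison below. Over the 14107 regions with 1 peak of each file, the tags of the C-MYC replicates gave a chi-square per degree of freedom of 0.947 (p = 1.00 for a difference), so in these regions they differed by less than the sampling noise. The SOX2 replicates gave 27.3 by the same measure. Over all 14495 regions, which include those with several peaks of a file, the C-MYC value was 1.08 (chi-square test, p = 7.8e-12), a difference beyond sampling noise, and the SOX2 value was 31.8. The C-MYC files were not copies of each other, since 124 of their peaks had the same start and end, but because of their agreement in the regions with 1 peak of each file they were counted as 1 sample where a mean and an error are given. An error below is thus the SD over the 2 SOX2 files. The fit with the 2 C-MYC files as separate samples, which was the design, is given beside the fit with their tags summed.

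At the median shared region, C-MYC and SOX2 took similar shares of their tags. The median signal was 28.7 and 28.9 normalised tags in the C-MYC replicates, 30.8 in SOX2 replicate 1 and 36.4 in SOX2 replicate 2. Both SOX2 medians lay above both C-MYC medians, a log2 difference of -0.22 (exact permutation test over samples, two-sided p = 0.333, the smallest that 2 against 2 files allow, and p = 0.667 with C-MYC as 1 sample). Region by region, the median log2 ratio of C-MYC over SOX2 was -0.26 ± 0.25 (SD, n = 2 SOX2 files), a ratio of 0.834. It was -0.09 against SOX2 replicate 1 and -0.44 against SOX2 replicate 2, so the SOX2 files differed from each other by more than the first of them differed from C-MYC.

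The range of the signal separated SOX2 replicate 2 from the other 3 files. The region at the 90th percentile had 9.58 and 9.37 times the signal of the region at the 10th percentile in the C-MYC replicates and 10.5 times in SOX2 replicate 1. This ratio was 4.5 in SOX2 replicate 2. In the quintile of the regions with the lowest mean signal, the medians were 8.40 and 8.56 for C-MYC, 9.06 for SOX2 replicate 1 and 20.7 for SOX2 replicate 2. In the quintile with the highest, they were 79.4, 79.3, 81.6 and 61.6 normalised tags. SOX2 replicate 1 followed C-MYC closely across these quintiles, which were made from the same values, while SOX2 replicate 2 was higher at weak regions and lower at strong ones.

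Across the 14495 regions, the signals of the 2 factors were correlated, and the degree depended on the SOX2 file. Spearman's rho was 0.773 between C-MYC replicate 1 and SOX2 replicate 1 and 0.509 between C-MYC replicate 1 and SOX2 replicate 2. With C-MYC replicate 2 the values were 0.773 and 0.515. The C-MYC replicates had a rho of 0.982 with each other. The SOX2 replicates had a rho of 0.411, so each SOX2 file ranked the regions more like C-MYC did than like the other SOX2 file. Averaged over the C-MYC files, rho between the factors was 0.642 ± 0.185 (SD, n = 2 SOX2 files).

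The correlations were lower when the signal was divided by peak length. Per base of peak, the signal had a rho of 0.616 and 0.620 between the C-MYC replicates and SOX2 replicate 1, of 0.333 and 0.335 between them and SOX2 replicate 2, of 0.941 between the C-MYC replicates and of 0.201 between the SOX2 replicates. The order of the pairs was the same as for the tags per region. No p is given for any of these values, because the points are regions of the same libraries.

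**Figure D1:**
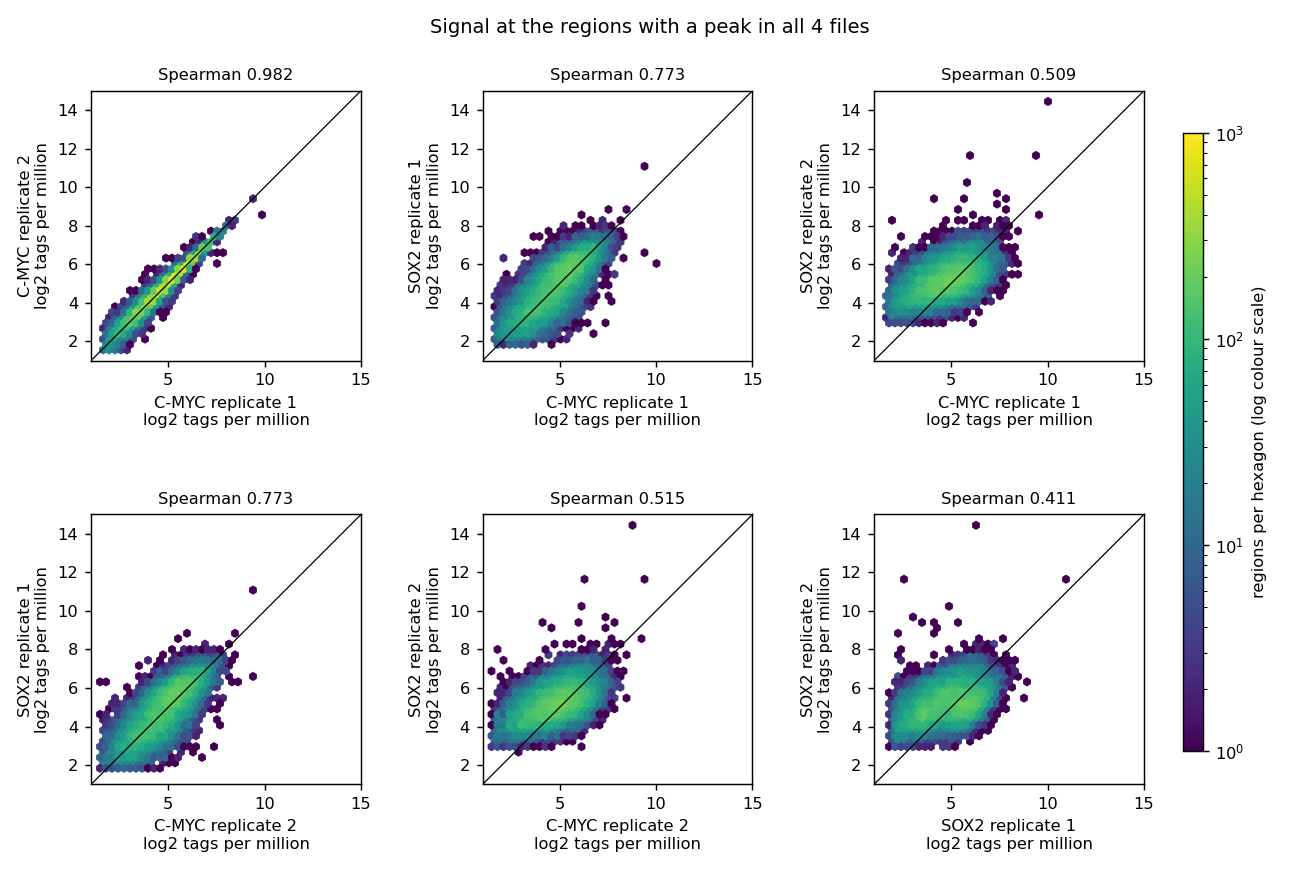
Signal of each of the 14495 regions in 2 files, for all 6 pairs of files, in log2 normalised tags on both axes. The colour gives the number of regions per hexagon on a log scale, the line marks equal signal, and the C-MYC replicates lie along it (rho 0.982) while the SOX2 replicates are the most scattered pair (rho 0.411).

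The scatter of single regions around the median ratio was larger than counting error for every pair but the C-MYC replicates. The log2 ratio had an SD over regions of 0.25 between the C-MYC replicates, where tag counts alone would give about 0.27. Against SOX2 replicate 1 the SD was 0.85 for replicate 1 of C-MYC and 0.84 for replicate 2, and against SOX2 replicate 2 it was 1.08 and 1.06. Between the SOX2 replicates it was 1.20. Regions more than 2-fold away from the median ratio made up 0.531% for the C-MYC replicates, 22.4% and 22.2% against SOX2 replicate 1, 36.3% and 35.7% against SOX2 replicate 2, and 45.1% between the SOX2 replicates.

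No region differed between the factors by the test of the design. With edgeR's quasi-likelihood test on the tags, 0 of the 14495 regions (0%) had an adjusted p under 0.05 with C-MYC higher and 0 (0%) with SOX2 higher, and the smallest adjusted p was 0.439. At an unadjusted p under 0.05 there were 1623 regions, 383 with C-MYC higher and 1240 with SOX2 higher. DESeq2, which gave an adjusted p for 13370 of the regions, called 11 with C-MYC higher (0.0823%) and 26 with SOX2 higher (0.194%). With the C-MYC tags summed to 1 sample, edgeR called 0 regions and 48 had an unadjusted p under 0.05, with the lone C-MYC sample assumed to vary like SOX2.

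These counts rested on the 2 SOX2 files being in the same group. Without SOX2 replicate 1, edgeR called 3110 regions with C-MYC higher and 7003 with SOX2 higher, and without SOX2 replicate 2 it called 3619 and 4723. In these fits the spread came from the C-MYC pair alone, and the lone SOX2 sample was assumed to vary like it. Leaving out either C-MYC file left 0 calls, with 56 regions at an unadjusted p under 0.05 without replicate 1 and 54 without replicate 2. A missing call here does not show that C-MYC and SOX2 signal were equal at a region.

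In 2263 regions (15.6%) both C-MYC files lay above both SOX2 files, and in 4778 regions (33%) both SOX2 files lay above both C-MYC files. The split depended on the scaling. With the TMM factors of edgeR, which moved the median log2 ratio up by 0.24, the counts were 3398 and 3486, and with the tags in shared regions as the library size they were 3203 and 3643. C-MYC thus had 32.1% of the regions that did not overlap with tags in peaks as the library size, 49.4% with TMM and 46.8% with tags in shared regions. Both C-MYC files were above SOX2 replicate 2 alone in 4620 regions and below it in 9124. They were above SOX2 replicate 1 alone in 6011 and below it in 7263. With only peaks of a score of at least 100 kept, for regions and library sizes alike, 5026 regions were shared. C-MYC was above in 390 of them and SOX2 in 2454.

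The rule for naming regions by size of difference asked for an adjusted p under 0.05, which 0 regions had. The 10 regions farthest to each side, among those whose files did not overlap and that held at least 50 tags in each file of the higher factor, were therefore chosen after their values were seen, and are given as values with no test. The SOX2 side reached farther than the C-MYC side. Every file had to hold a peak, which limits how far a ratio can go. The fewest tags in a shared region were 9 in each C-MYC file, 10 in SOX2 replicate 1 and 13 in SOX2 replicate 2. The region farthest to the SOX2 side held 11 and 10 C-MYC tags, close to that limit. The log2 ratio of C-MYC over SOX2 ran from 2.12 to 2.74 in the 10 regions of the C-MYC side, a 4.34- to 6.67-fold higher C-MYC signal, and from -5.46 to -2.95 in the 10 of the SOX2 side, a 7.75- to 44.1-fold higher SOX2 signal. Under TMM or with tags in shared regions as the library size, all 20 kept their direction.

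The region farthest to the C-MYC side was chr3:31044301-31045536, which held 272 and 283 C-MYC tags and 21 and 45 SOX2 tags, or 95.1, 89.8, 7.61 and 25.2 normalised tags. The C-MYC replicates were nearly equal there, and the SOX2 replicates differed several-fold from each other. Next came chr4:44078033-44079322, with 259 and 288 C-MYC tags and 38 and 40 SOX2 tags, and chr9:20968258-20972211, the widest of the 10, with 635, 670, 112 and 79 tags. In normalised tags the SOX2 files stood at 13.8 and 22.4 in the first and 40.6 and 44.3 in the second, and the C-MYC files at 90.6 and 91.4 and at 222.1 and 212.5, so the SOX2 files were closer to each other in the second. At chr15:99475093-99476159 the tags were 215 and 251 for C-MYC and 42 and 32 for SOX2. A weaker case was chr6:148083633-148085426, with 100.7 and 101.2 C-MYC normalised tags against 5.08 and 97.5 for SOX2, where SOX2 replicate 2 came close to C-MYC and SOX2 replicate 1 made the difference. The 4 summits lay within 100 bp of each other in 7 of the 10 regions.

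On the SOX2 side, chr9:3025209-3027922 held 11 and 10 C-MYC tags and 236 and 495 SOX2 tags, or 3.85, 3.17, 85.6 and 277.4 normalised tags. Its neighbour chr9:2999886-3001226 held 15, 14, 127 and 312 tags. These were the first shared regions on their chromosome, as was chr13:3371804-3373097 with 11, 19, 80 and 158 tags, and in all of them SOX2 replicate 2 was the highest file. The pair chr11:87235928-87237464 and chr11:87239700-87241523 also stood next to each other. The first held 31, 36, 265 and 247 tags, and the second held 25, 44, 260 and 157. There the SOX2 files were more alike, at 96.1 and 138.4 normalised tags in the first and 94.3 and 88.0 in the second, against 8.75 to 13.96 in the C-MYC files of the second. The remaining SOX2-side regions were chr12:68159944-68161124, chr4:70038786-70039659, chr10:21862018-21863122, chr17:36368083-36368854 and chr3:8244552-8246887, and their files did not overlap by the rule that chose them.

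**Figure D2:**
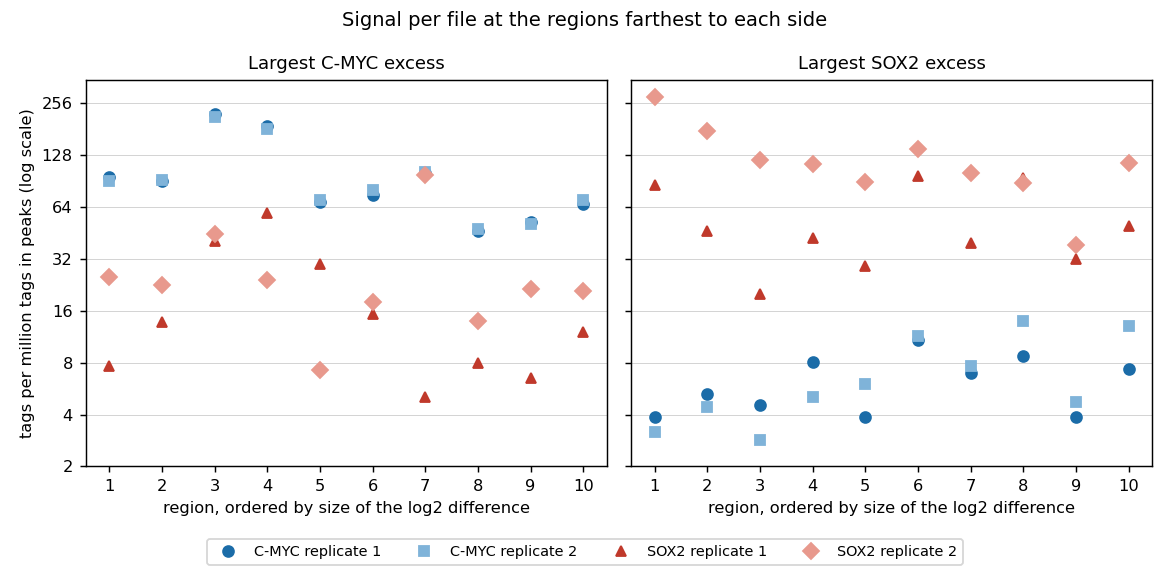
Signal in normalised tags (log scale) of each file at the 10 regions with the largest C-MYC excess and the 10 with the largest SOX2 excess, ordered by the size of the log2 difference. The C-MYC replicates nearly coincide at most regions of the left panel, while the SOX2 replicates are several-fold apart at many regions of both panels.

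The regions with the most tags were led by a few places where 1 factor or 1 file had far more tags. At chr17:39979820-39985889, 6070 bp wide, there were 1957 and 2071 C-MYC tags and 6094 and 5952 SOX2 tags. By tags SOX2 had 4.05 times the C-MYC signal, at 2210 and 3335 normalised tags against 684.6 and 656.95 (edgeR adjusted p = 0.493, DESeq2 adjusted p = 0.158). Fold enrichment over background had the other order there, at 3.78 and 3.65 for C-MYC and 1.95 and 2.45 for SOX2. Of the 5 regions with the most tags, both C-MYC fold enrichments were above both SOX2 ones in 3 and below in 1. At chr6:145253622-145332937 the tags were 2800 and 1281 for C-MYC, 198 for SOX2 replicate 1 and 40594 for SOX2 replicate 2. A single SOX2 replicate 2 peak there was 79316 bp long. At chr6:148892291-148896217 the tags were 1959, 2014, 259 and 683, with C-MYC higher. The other regions of the 5 with the most tags had groups closer together, with 786, 823, 798 and 318 tags at chr14:55671987-55675037 and 707, 731, 412 and 547 at chr13:60025963-60029883.

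Both chromosome 6 regions belong to a distal stretch that held 27 of the shared regions, between bases 142293634 and 148896217. The median signal there was 57.7 in both C-MYC files, 7.98 in SOX2 replicate 1 and 187.2 in SOX2 replicate 2, so the SOX2 replicates lay on opposite sides of C-MYC. These regions took 4.98% of the tags that SOX2 replicate 2 had in shared regions and 0.102% of those of SOX2 replicate 1. In an alternative these regions were left out and every peak of distal chromosome 6 was taken out of the library sizes, so the scaling changed too. C-MYC was then above both SOX2 files in 2297 regions and below in 4600.

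At the other end, 5 of the 500 regions with the most tags had the smallest fitted differences. At chr2:119124427-119128162 the tags were 420 and 408 for C-MYC and 254 and 328 for SOX2, or 146.9, 129.4, 92.1 and 183.8 normalised tags, with the C-MYC files between the SOX2 files. At chr15:97641545-97644752 the signals were 109.8, 106.3, 98.3 and 117.1 normalised tags, and at chr1:174279039-174281264 they were 110.9, 102.5, 97.5 and 117.1. The 4 files were nearly level at both. The remaining regions of this kind were chr5:141243277-141245490, with 122.8, 109.8, 88.1 and 143.5 normalised tags, and chr11:50138619-50140037, where the SOX2 replicates stood at 147.6 and 56.6 around a C-MYC signal of 105.3 and 99.3.

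The summit of a peak is the base where its tags pile up highest, and in shared regions the summits of the 2 factors were mostly within 100 bp of each other. The median distance was 45 bp between either C-MYC file and SOX2 replicate 1 and 54 bp between either and SOX2 replicate 2, a mean of 49.5 ± 6.36 bp (SD, n = 2 SOX2 files). The C-MYC replicates were 15 bp apart at the median and the SOX2 replicates 64 bp. The distance between the factors was thus smaller than that between the replicates of SOX2. The 2 summits were within 50 bp of each other in 83.4% of regions for the C-MYC replicates, in 53.8% and 53.9% for C-MYC and SOX2 replicate 1, in 48.0% and 47.4% for C-MYC and SOX2 replicate 2, and in 42.7% for the SOX2 replicates. The signed offset along the chromosome had a median of 0 or 1 bp in every pair. Coordinates do not follow gene strand, so an offset upstream or downstream of genes could cancel here and was not measured.

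To see the offset where it could be measured more closely, the 5401 regions (37.3%) were taken in which the replicates of each factor lay within 50 bp of each other. There the mean C-MYC summit and the mean SOX2 summit were a median of 24 bp apart, with a 90th percentile of 102 bp. They were within 50 bp in 4100 of these regions (75.9%) and over 200 bp apart in 288 (5.33%). In 141 of those 288 (49.0%), the C-MYC summit had the higher coordinate. All 4 summits fell within 50 bp in 3154 of the 14495 regions (21.8%).

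The 3 largest such offsets were found in regions that held well-separated summits of both factors. At chr3:107651644-107654323 the C-MYC summits stood at 107653801 and 107653808 and the SOX2 summits at 107652103 and 107652133, 1686.5 bp apart. At chr15:99648838-99650813 the C-MYC summits were at 99649242 and 99649211 and the SOX2 summits at 99650520 and 99650566. At chr1:121150943-121154159 they were at 121153551 and 121153524 for C-MYC and at 121152225 and 121152246 for SOX2, 1302 bp apart. In each of them the replicates of a factor lay within 46 bp of each other, so both factors had a peak in the region without sharing its highest point.

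**Figure D3:**
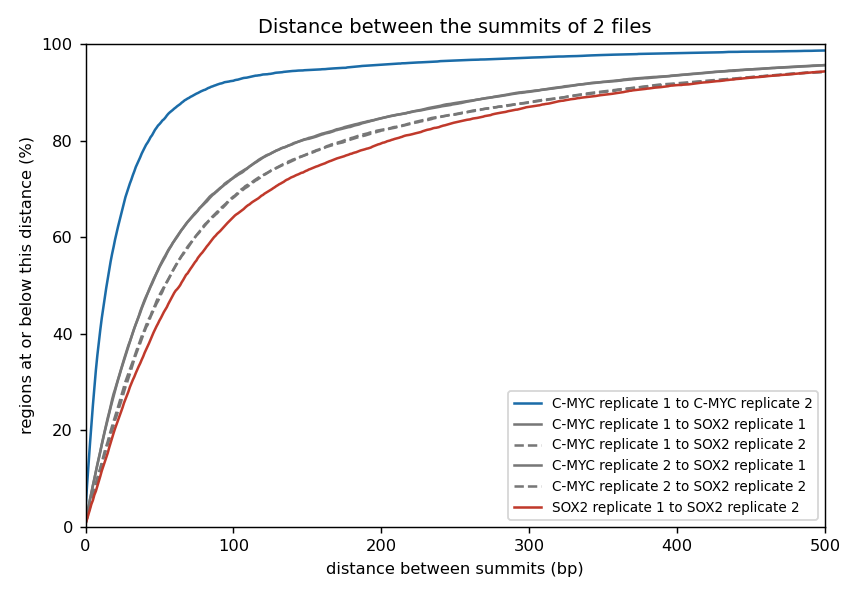
Cumulative share of the 14495 regions, in percent, by the distance in bp between the summits of 2 files, with 1 line per pair and the 4 pairs of a C-MYC with a SOX2 file in grey (dashed for SOX2 replicate 2). At 50 bp the C-MYC replicates have reached 83.4%, the pairs between factors 47.4% to 53.9% and the SOX2 replicates 42.7%.

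Peaks of C-MYC and SOX2 were of similar length in the shared regions. The median length was 965 and 1038 bp for C-MYC and 1017 and 929 bp for SOX2, against 605 to 632 bp for the same files in their other regions. The C-MYC files lay on both sides of SOX2 replicate 1. The mean log2 length was higher in C-MYC by 0.02, a ratio of 1.01 (exact permutation test over samples, two-sided p = 1.0 for 2 against 2 files and with C-MYC as 1 sample). Both C-MYC peaks were longer than both SOX2 peaks in 2923 regions (20.2%) and shorter in 2673 (18.4%). Lengths were correlated over regions with a rho of 0.785 and 0.775 between C-MYC and SOX2 replicate 1, 0.593 and 0.589 between C-MYC and SOX2 replicate 2, and 0.536 between the SOX2 replicates. Within each file, length and signal were correlated, with a rho of 0.777 to 0.831.

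Fold enrichment, which the authors deposited as a linear ratio to background, was higher for C-MYC. Its median was 11.6 and 11.3 in the C-MYC replicates, 9.97 in SOX2 replicate 1 and 6.52 in SOX2 replicate 2. On the log2 scale the mean was 3.52 and 3.49 for C-MYC and 3.30 and 2.75 for SOX2, a difference of 0.48 or 1.39-fold (exact permutation test over samples, two-sided p = 0.333, the smallest that 2 against 2 files allow, and p = 0.667 with C-MYC as 1 sample). Both C-MYC values were above both SOX2 values in 8261 regions (57.0%) and below in 457 (3.15%). Fold enrichment and tags gave different orders of the factors at many regions, since by tags the SOX2 side was the larger. Within a file, fold enrichment and signal were nearly unrelated over regions, with a rho of -0.15 in both C-MYC files, 0.02 in SOX2 replicate 1 and 0.08 in SOX2 replicate 2.

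**Figure D4:**
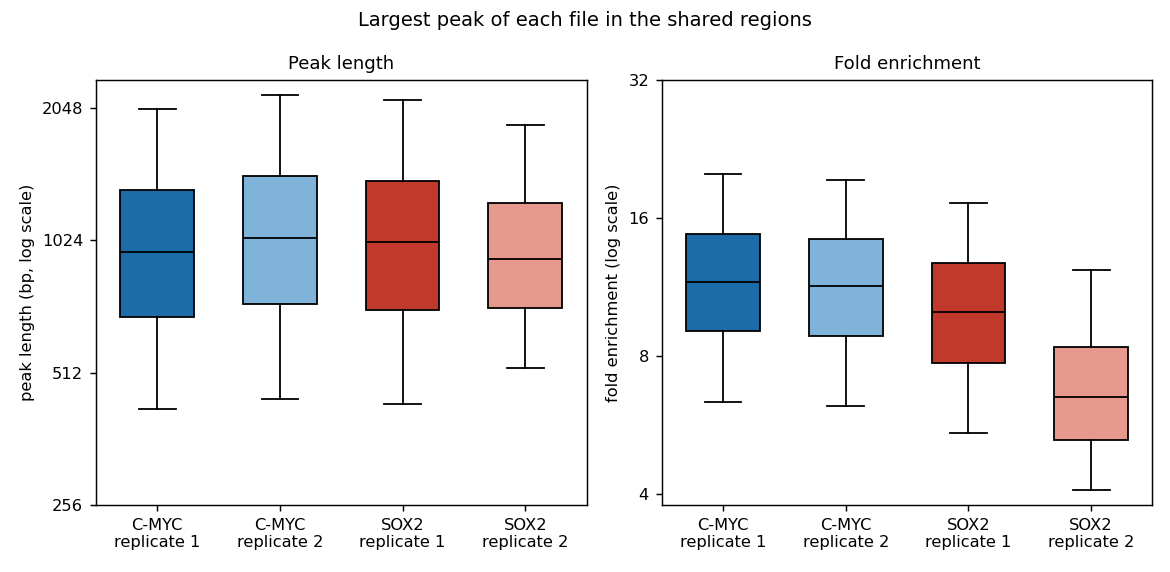
Length in bp and fold enrichment (both on log scales) of the largest peak of each file in the 14495 regions, with boxes for the quartiles, a line for the median and whiskers for the 5th and 95th percentiles. The lengths of the 4 files overlap nearly fully, with medians of 929 to 1038 bp, while the fold enrichment falls from 11.6 in C-MYC replicate 1 to 6.52 in SOX2 replicate 2.

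At the extremes, tags and fold enrichment put the factors in the same order on the C-MYC side and mostly not on the SOX2 side. Over all 14495 regions, both C-MYC fold enrichments were above both SOX2 ones in 57.0% and below in 3.15%. In the 10 regions farthest to the C-MYC side, C-MYC fold enrichment was above SOX2 in all 10, as at chr3:31044301-31045536 with 23.0 and 21.8 against 10.42 and 12.03. In the 10 farthest to the SOX2 side, both SOX2 values were above both C-MYC values in 1, chr4:70038786-70039659, with 16.6 and 19.2 against 9.19 and 8.17, and both C-MYC values were above both SOX2 values in 3. At chr9:3025209-3027922, where SOX2 had the largest excess of tags, fold enrichment was 13.1 and 10.9 for C-MYC and 5.13 and 6.21 for SOX2. The SOX2 peaks there were 1709 and 2697 bp long and the C-MYC peaks 373 and 300 bp. Both SOX2 peaks were longer than both C-MYC peaks in 9 of the 10 SOX2-side regions, against 18.4% of all shared regions. These regions were chosen by tags, which were correlated with length within each file, so the count is no separate result.

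POLII, the enzyme that transcribes protein-coding genes, was not used to choose the regions and gives a separate readout at them. Of the 14495 regions, 13037 (89.9%) held a peak of POLII replicate 2 and 2787 (19.2%) a peak of POLII replicate 1. The POLII replicates differed so much that they are given apart. The comparisons with POLII use signal not divided by length, and length and signal were correlated within each file. Whether region width had a part in them was not tested. Where POLII replicate 2 had a peak, the median signal was 31.5 and 31.7 normalised tags for C-MYC, 34.4 for SOX2 replicate 1 and 38.1 for SOX2 replicate 2. Where it had none, the medians were 10.5, 10.8, 10.9 and 22.4. All 4 files were thus higher at regions with a POLII replicate 2 peak, by 3.0, 2.94, 3.17 and 1.70 times. For POLII replicate 1 the same ratios were 1.36 and 1.35 for C-MYC, 1.80 for SOX2 replicate 1 and 0.939 for SOX2 replicate 2, whose median was 34.7 with a peak and 37.0 without.

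Over the 13037 regions, tags of POLII replicate 2 were correlated with C-MYC signal with a rho of 0.704 and 0.706, with SOX2 replicate 1 with a rho of 0.88 and with SOX2 replicate 2 with a rho of 0.311. Between SOX2 replicate 1 and SOX2 replicate 2 rho was lower, at 0.411, but over all 14495 regions. It is not given over the 13037 regions alone. From the lowest to the highest quintile of regions by POLII tags, the median C-MYC signal went from 12.2 to 65.8 in replicate 1 and from 12.4 to 65.2 in replicate 2. That of SOX2 replicate 1 went from 11.6 to 87.4, a factor of 7.53. SOX2 replicate 2 went from 25.8 in the lowest quintile to 51.0 in the middle one, and stood at 35.9 and 46.0 in the next 2. For POLII replicate 1, over its 2787 regions, rho was 0.083 and 0.087 with C-MYC and 0.049 and 0.182 with SOX2.

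**Figure D5:**
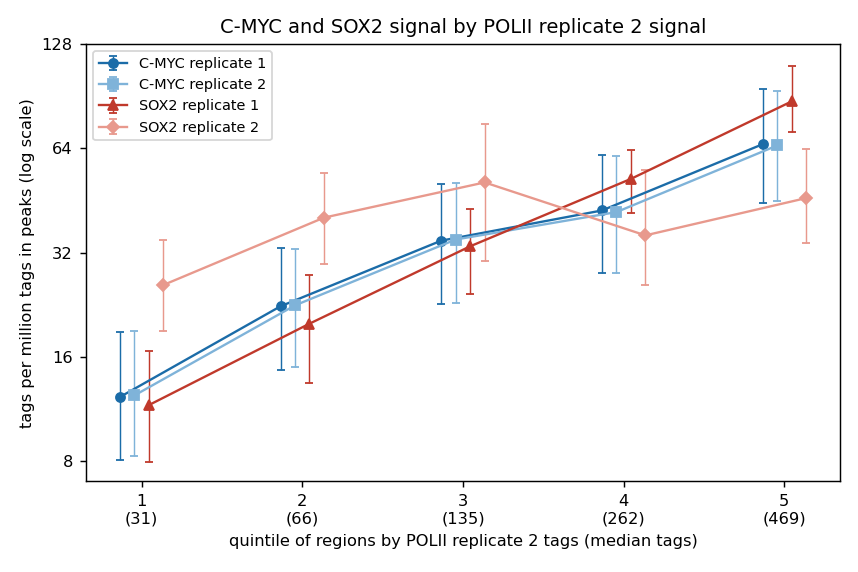
Median signal of each file, in normalised tags (log scale), in quintiles of the 13037 regions with a POLII replicate 2 peak, ordered by POLII tags (median tags in brackets), with bars from the lower to the upper quartile. C-MYC and SOX2 replicate 1 climb through all quintiles, from 11.6 to 12.4 up to 65.2 to 87.4, and SOX2 replicate 2 is highest in the middle quintile at 51.0.

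The balance between the factors, with the SOX2 files averaged, varied with the tags of POLII replicate 2 and less with POLII replicate 1. In the quintile of all regions with the lowest ratio of C-MYC to SOX2, 83.3% held a POLII replicate 2 peak, with a median of 69.5 tags, and in the quintile with the highest ratio 94.7% did, with a median of 194.0 tags. For POLII replicate 1 the shares were 17.7% and 22.6%, and its median tags were 33.0, 27.0, 28.0, 29.0 and 31.0 from the lowest to the highest quintile, with no rise. Regions leaning to C-MYC, with the SOX2 files averaged, thus more often held a peak of either POLII file. They held more POLII tags in replicate 2 alone. The direction depended on the SOX2 file. From the lowest to the highest quintile by POLII replicate 2 tags, the median signal rose 5.37 and 5.27 times in C-MYC. It rose 7.53 times in SOX2 replicate 1 and 1.78 times in SOX2 replicate 2. By these medians C-MYC gained on SOX2 replicate 2 and fell behind SOX2 replicate 1. The lowest and highest ratios were also those of the regions with few and many tags. Their medians were 32 and 179 tags in C-MYC replicate 1, 56 and 108 in SOX2 replicate 1, but 65 and 60 in SOX2 replicate 2. Whether tag number, the SOX2 replicates or the place of the regions had a part in this was not tested. Of the 10 regions farthest to the SOX2 side, 8 held a peak of POLII replicate 1, as did 1 of the 10 on the C-MYC side, against 19.2% of all regions. These regions were chosen after their values were seen, and their order was opposite to that of the quintiles by ratio. A POLII replicate 2 peak was held by 10 on the SOX2 side and 9 on the C-MYC side, against 89.9% of all regions.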

How the data were processed

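ChIP-seq peaks of iMOP cells were analysed as lists of peaks, 1 per replicate, which the authors called in each replicate without pooling. The submitters' processing notes name mm9. The aligner, the peak caller and its control are not given in the sources used here, and the input DNA was not analysed here. Tags per peak are deposited raw counts. The authors gave each peak a score of 10 times -log10 of a p-value, of which the lowest was 50, and a fold enrichment, deposited as a linear ratio over background.

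Peaks were merged when they shared at least 1 bp. Bedtools 2.31.1 gave the same 70193 merged and 14495 shared regions. Tags were summed per region and file and divided by the file's tags in peaks. The length medians, ratios, correlations and permutation test used the longest peak of a file in a region. Summit and fold enrichment are those of the peak with the most tags. Factors were compared with edgeR 4.0.16 (quasi-likelihood test, library size set to the tags in peaks, Benjamini-Hochberg adjustment over all 14495 regions, R 4.3.3), and with DESeq2 1.42.0 as an alternative. Values per file were compared with exact permutation tests. The scripts were tested on simulated data. Ratios of regions are differences of mean log2 signal. Other values came from scipy 1.17.1, pandas 2.3.3 and numpy 2.4.6 under python 3.11.15.

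The regions and the lists were chosen with earlier results of these data known. Named regions were to be the 10 with the largest difference on each side among those with an adjusted p under 0.05, files that did not overlap and at least 50 tags in each file of the higher factor, the 5 with the highest mean signal, and the 5 with the smallest fitted difference among the 500 with the most tags. No region of chromosome 18 is named, but its regions are in every fit and count. Gene lists and motifs of the design were not computed, because the references used here are of another build. The alternatives were other scalings, tag, overlap and score minimums, region shape, tags per base, chromosomes left out, each replicate left out and a replicate block. Summing the C-MYC tags, and the alternatives for regions that did not overlap, were chosen after seeing the data.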

Additional observations from a re-analysis of the deposited data

How the results depend on the processing

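Of 114 values for the comparisons under the alternatives, 94 stayed within the spread of the SOX2 files or within 1.5 times the count, and 20 did not. Counts of 0 that stayed 0 were among the 94. The median log2 ratio of C-MYC over SOX2 rose from -0.26 to -0.02 with TMM and to -0.07 with tags in shared regions, close to level. Both counted as within the spread only because it was wide, an SD of 0.25 over 2 SOX2 files. The median log2 ratio of C-MYC over SOX2 was -0.61 with only peaks of a score of at least 100 kept, for regions and library sizes alike. C-MYC was then above both SOX2 files in 390 regions and below in 2454. The SD of the log2 ratio over regions was 0.75 per base of peak. With TMM, C-MYC was above both SOX2 files in 3398 regions. The median log2 length ratio was -0.023 to 0.052 with 1 C-MYC replicate left out. DESeq2 called 11 and 26 regions with C-MYC and SOX2 higher, and 6 and 48 with its size factors set from tags in peaks. With 1 replicate left out, edgeR called 0 to 3619 regions with C-MYC higher and 0 to 7003 with SOX2 higher, and C-MYC was above both SOX2 files in 2549 to 6011 and below in 5406 to 9124. With a replicate block edgeR called 13 regions with SOX2 higher and 0 with C-MYC higher, but same-numbered replicates did not deviate together (Pearson's r 0.040 over regions), so they share only a number. The cause of these changes was not tested. Of 60 values of named regions under other scalings, 51 stayed within the spread and 9 moved, with a change of sign only at chr1:174279039-174281264, from -0.0039 to 0.24 with TMM and 0.19 with tags in shared regions. Depth limits single regions, since 11.3% of them had under 20 tags in some file.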

Other observations

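The balance between C-MYC and SOX2 varied along the chromosomes. Between neighbouring shared regions 1 to 5 kb apart (539 pairs), the log2 ratio of C-MYC over SOX2 had a Spearman's rho of 0.203, and between those 100 to 1000 kb apart (4511 pairs) one of 0.120. The log2 ratio of the SOX2 replicates had a rho of 0.517 and 0.177 over the same pairs, so the difference between the SOX2 replicates was shared by neighbours more than the difference between the factors. For the C-MYC replicates the values were -0.03 and -0.01. The points are regions of the same libraries, and no test was made.

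Of 786 windows of 1 Mb with at least 8 shared regions, 175 had a median log2 ratio above 0. The lowest was chr13:23000001-24000000, with a median of -1.57 over 21 regions, 20 of them below 0. The median signal there was 17.5 and 19.7 normalised tags for C-MYC and 56.6 and 37.0 for SOX2, and all 21 regions held a POLII replicate 2 peak. The highest was the 1 Mb of chromosome 6 from base 148000001, with a median of 0.91 over 10 regions, where C-MYC had 58.2 and 55.7 normalised tags and the SOX2 replicates had 7.25 and 109.3. In the first window both SOX2 replicates were above both C-MYC replicates. In the second they lay on opposite sides of them. Chromosome medians ran from -0.47 on chromosome 13 to -0.12 on chromosome 7.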
